A study of Mus musculus with 94 samples.

Results

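A set of 10 genes of the lysosome and the secretory granule was followed across single basophils from mouse bone marrow. They are the cathepsin genes Ctsb, Ctsc, Ctsd, Ctss and Ctsz, the cathepsin inhibitor gene Cst3, the granule proteoglycan gene Srgn, and the lysosomal membrane protein genes Lamp1, Lamp2 and Cd63. The members were chosen as a list of named genes, and all 10 were found among the 46078 gene identifiers of the count table. Positions given below are those of the GENCODE annotation on mm10 (GRCm38). The cells came from female C57BL/6 mice and were sorted as live, lineage-negative, Sca1-negative and FcεRI-positive, where FcεRI is the high-affinity IgE receptor. One gate, CD34_Pos, took the cells with CD34, a surface protein of blood progenitors, and the other, CD34_Neg, took those without it. Each gate holds 47 cells, each cell is 1 library of polyadenylated RNA with ERCC spike-in RNA, and no treatment was given in the labels.

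Basophils are granulocytes that store proteases and histamine in secretory granules, which are related to lysosomes. Cathepsins are proteases that digest proteins in lysosomes and also trim other proteases in granules; cystatins hold the cysteine cathepsins in check. Serglycin carries long sulfated sugar chains that bind and pack positively charged granule proteins, and LAMP and tetraspanin proteins line the lysosomal and granule membrane. CD63 appears on the surface of basophils when granules fuse with the cell membrane, and is used as an activation marker.

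Promoter sequence bears on these genes because many lysosomal genes carry the motif bound by TFEB-family factors. RefSeq promoter windows of 300 bases, from 250 before to 50 after the start site on build GRCm38.p6, were matched for 9 members, and Ctsb was not matched. CACGTG, which reads the same on both strands, was found in the windows of Lamp1 and Ctsd and in none of the other 7. It occurs in 7.15% of all 32851 windows in the table, and 8 of them (0.0244%) hold 4 or more matches. The members' share, 2 of 9 or 22.2%, lay within the 0% to 50% of the 9 lists of other pathway genes described further on, such as 24.1% of the lysosomal hydrolases and 46.7% of the sorting genes. These shares count genes with a match in any of their windows, while the 7.15% counts single windows, so those measures are unlike. A gene with several windows, such as Srgn, has more chances of a match. The Lamp1 window has 4 matches, with first bases at positions -61, -45, -28 and -15 from the start site, and the Ctsd window has 2, at -245 and -98. The stretches that hold them are shown 5′ to 3′ on the gene's strand, with the motif in capitals. A link between these matches and the levels of the genes was not tested. The Lamp1 stretch is chr8:13159061-13159160 on the plus strand and overlaps no annotated exon. The first Ctsd stretch is chr7:142388048-142388077 on the minus strand, upstream of the annotated gene, and the second is chr7:142387908-142387937, inside an annotated Ctsd exon. A match is a description of the letters, not a measured binding site.
Lamp1: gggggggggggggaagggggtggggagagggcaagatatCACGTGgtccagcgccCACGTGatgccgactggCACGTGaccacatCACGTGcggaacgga
Ctsd, upstream: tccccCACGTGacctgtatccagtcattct
Ctsd, exon: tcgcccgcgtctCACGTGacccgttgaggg

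The design names 3 mice, but no label ties a cell to a mouse. Each gate therefore counted as 1 sample, no test was run, and the differences below have no replicate check. After a filter on depth and quality, 46 cells per gate were kept, with 262944 to 938322 gene reads per CD34_Neg cell and 374011 to 1154738 per CD34_Pos cell. Levels are in CPM, counts per 1e+06 gene reads, from reads summed over a gate. Differences are log2 folds, CD34_Pos over CD34_Neg, of CPM with a pseudocount of 1 added. The 95% interval comes from Poisson bounds on the reads and covers counting error only, since reads after 19 cycles of amplification are not independent molecules. Cd34 itself stood at 0.209 CPM in the CD34_Neg and 59.9 CPM in the CD34_Pos gate. Gene reads per ERCC read had a median of 6.87 in CD34_Neg and 14.4 in CD34_Pos cells. The median log2 fold of all 12460 genes with reads in at least 10 cells was 0.19 by gene reads and 1.04 by ERCC reads.

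One library went against its label, and results that change without it are given both ways. CD34_Neg cell 10 had 262944 gene reads, the fewest of the kept cells of its gate. Its 8 basophil markers summed to 236 CPM, against 8051 to 140065 CPM in the other 45 CD34_Neg cells, and its Fcer1a, Ms4a2 and Gata2 were the lowest of the gate. Fcer1a and Ms4a2 encode chains of FcεRI, the receptor the cells were sorted on, and each stood at 7.61 CPM in this cell. Its 8 monocyte and macrophage markers summed to 4187 CPM, with 7 of them at 10 CPM or more and Cx3cr1 at 0. The same list reached 0 to 1708 CPM in the other 45 cells of the gate. Its 8 dendritic cell markers summed to 17182 CPM, mostly Cd74 (12273 CPM) and H2-Aa (3548 CPM) of antigen presentation, with Flt3, Siglech and Xcr1 at 0, while no other CD34_Neg cell passed 313 CPM. The CD34_Pos cells had 0 to 464 CPM of the monocyte list and 0 to 409 CPM of the dendritic list, with 5205 to 173602 CPM of basophil markers.

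Among the 10 genes, cell 10 had the highest level of Ctsb, Ctsc, Ctss and Ctsz in its gate. It also had the lowest level of Ctsd and Srgn, at 15.2 and 22.8 CPM, and no Cd63 read. The cell held 13.98% of the gate's Ctsb reads, 10.1% of its Ctsz reads and 4.53% of its Ctsc reads. Every Ctss read of the gate came from this cell.

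**Figure D1:**
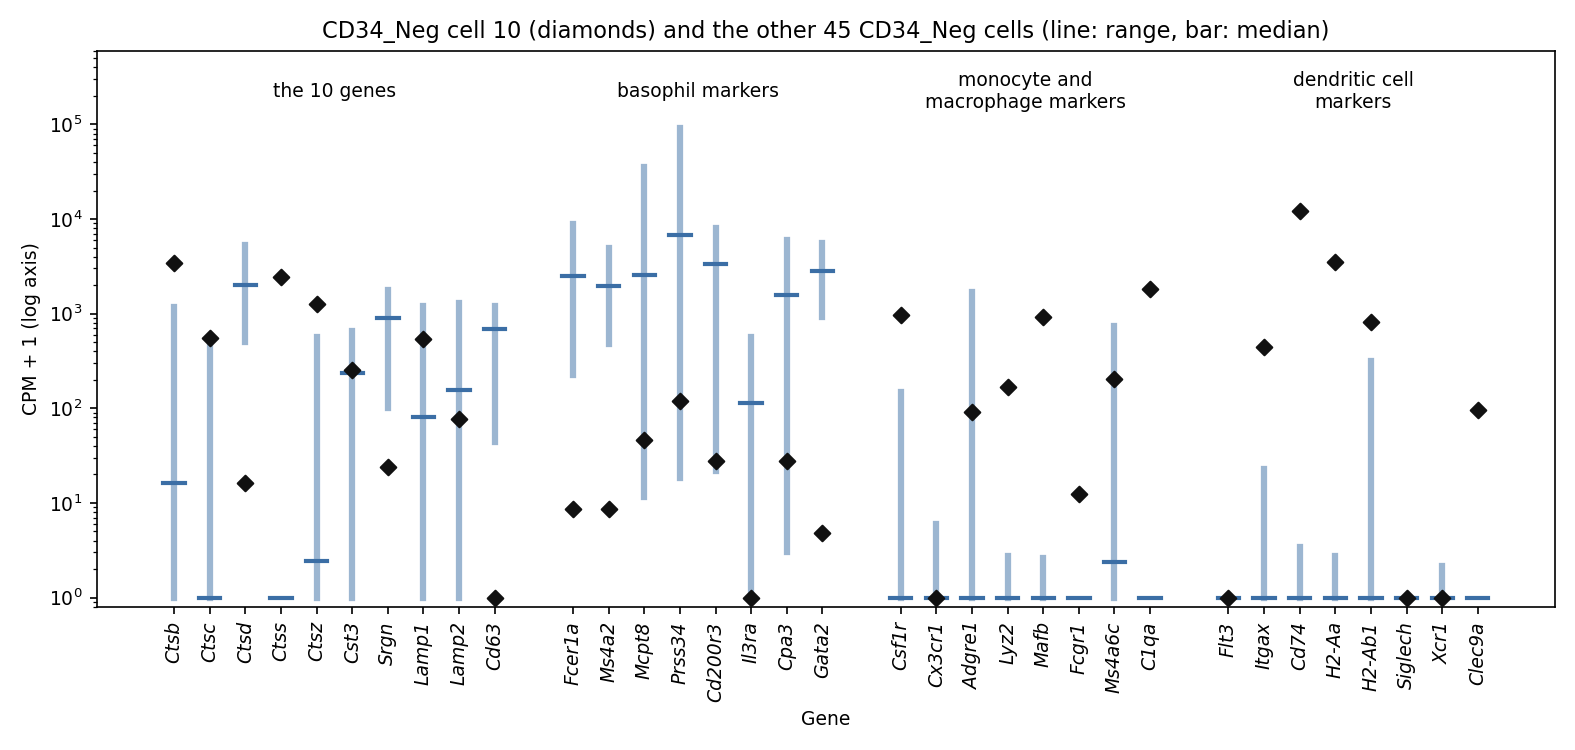
Levels as CPM + 1 on a log axis for the 10 genes and for basophil, monocyte and macrophage, and dendritic cell markers. Diamonds are CD34_Neg cell 10, vertical lines the range and horizontal bars the median of the other 45 CD34_Neg cells. Cell 10 lies above all other cells of the gate for Ctsb, Ctsc, Ctss and Ctsz and below them for Ctsd, Srgn and Cd63.

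Across all kept cells, 2 of the 10 genes were at least 2-fold higher in the CD34_Pos gate (Cst3 and Srgn) and 2 were at least 2-fold lower (Ctsd and Ctss). Of all 12460 genes with reads in at least 10 cells, 21.7% were at least 2-fold higher and 10.1% at least 2-fold lower. That filter was passed by 9 of the members but not by Ctss, whose difference rests on cell 10. Without that cell, 2 genes were higher and 1 lower, against 21.9% and 9.96% of genes. The median log2 fold of the 10 genes was 0.24, and 0.31 over the 9 that pass, near the 0.19 of all genes. With TMM factors or scran size factors, none of the genes was 2-fold higher. These settings also moved the median of all genes from 0.19 to 0.0209 (TMM) and 0.0048 (scran). The share of all genes past 2-fold is not given for them. Scaled by ERCC reads, 6 were 2-fold higher and only Ctss was 2-fold lower, against 51.8% and 2.25% of all genes.

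**Figure D2:**
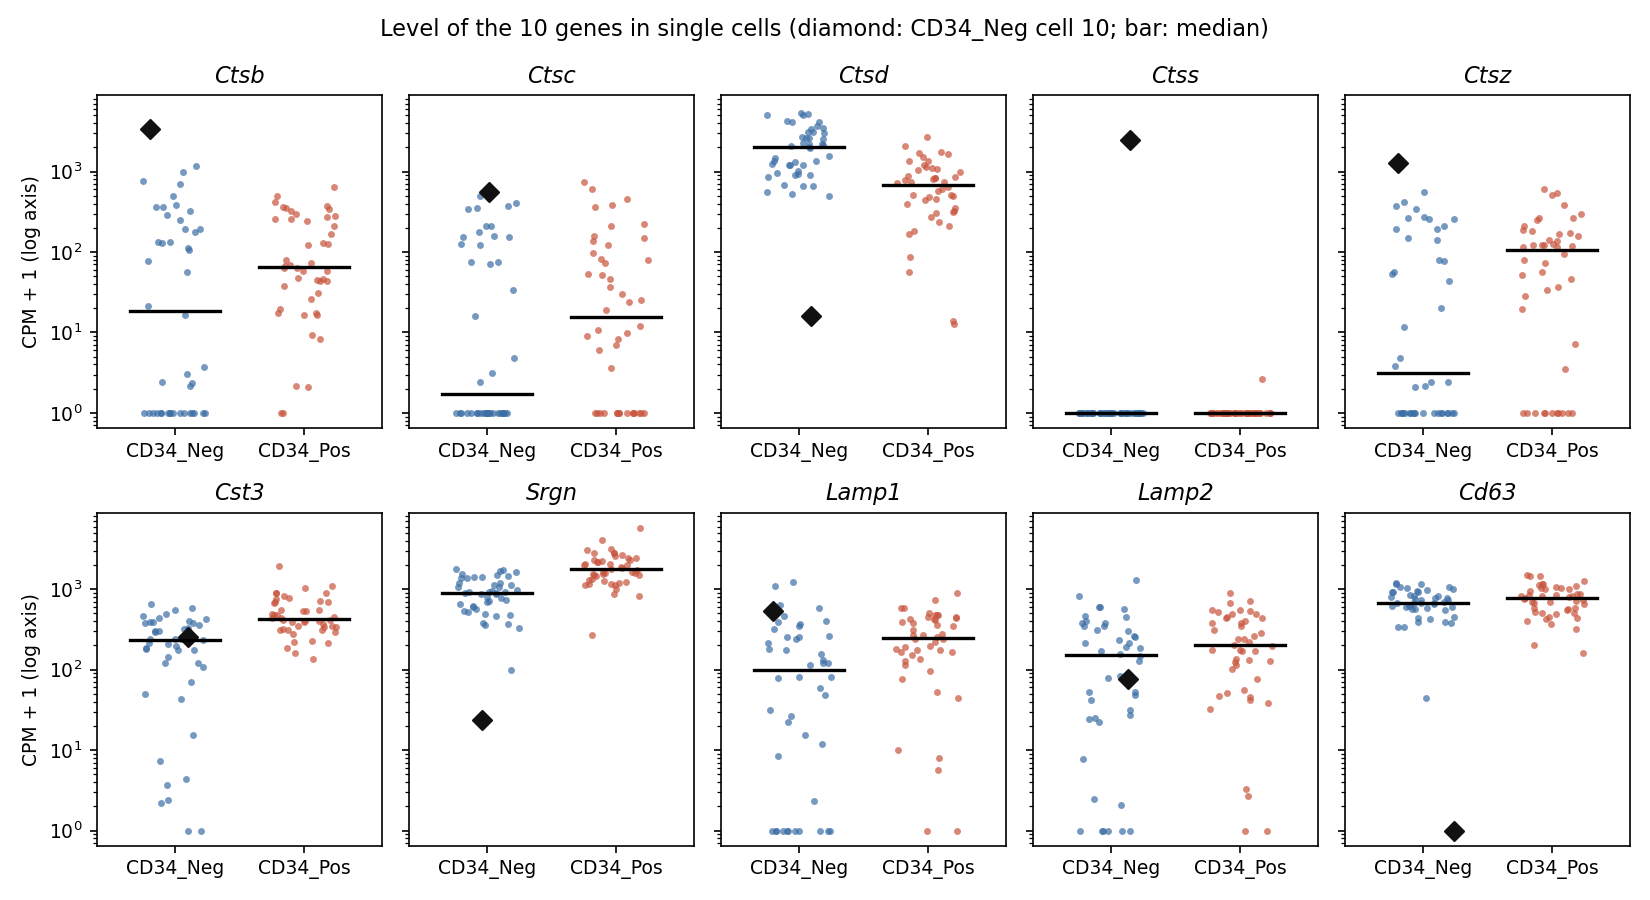
Level of each gene in single cells as CPM + 1 on a log axis, 46 cells per gate; bars are medians and the diamond is CD34_Neg cell 10. Ctsd lies higher in CD34_Neg cells, with medians of 1997 and 684 CPM, and Srgn and Cst3 lie higher in CD34_Pos cells. Cells without a read in CD34_Neg and CD34_Pos number 17 and 2 for Ctsb, 23 and 15 for Ctsc, and 19 and 11 for Ctsz. They number 11 and 2 for Lamp1, and 45 in each gate for Ctss.

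Of the cysteine cathepsins, Ctsb (ENSMUSG00000021939, chr14:63122462-63145923, plus strand) encodes cathepsin B, a lysosomal endopeptidase that also removes single dipeptides from protein ends. The CD34_Neg cells ranged from 0 to 3415 CPM with a median of 17.7 CPM, and the CD34_Pos cells from 0 to 639 CPM with a median of 64.0 CPM. All CD34_Pos values lay within the CD34_Neg range, whose upper end was made up of CD34_Neg cells alone, and the median and the summed level pointed in opposite directions. Summed reads gave 192 and 139 CPM, a log2 fold of -0.46 (-0.54 to -0.38). Without cell 10 it was -0.26, and without CD34_Neg cell 42, which held 16.8% of the gate's Ctsb reads, it was -0.24. The ERCC-scaled fold was 0.50, the opposite sign. Taking every pair of 1 cell from each gate, the CD34_Pos cell had more Ctsb in 60.1% of pairs, with ties counted equally for both gates. Ctsb shares 774 exonic bases, 12.8% of its exons, with Fdft1 on the opposite strand. The strand setting of the counting is not given in the sources used here, so reads there cannot be told apart; Fdft1 stood at 13.1 and 12.8 CPM.

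Ctsc (ENSMUSG00000030560, chr7:88278085-88310888, plus strand) encodes cathepsin C, or dipeptidyl peptidase I, which activates granule serine proteases by removing a dipeptide. Its level ran from 0 to 551 CPM in CD34_Neg cells (median 0.715 CPM) and from 0 to 742 CPM in CD34_Pos cells (median 14.5 CPM). Both gates held cells with and without reads, and their ranges overlapped. The summed levels of 95.7 and 94.7 CPM gave a log2 fold of -0.01 (-0.12 to 0.09). Its sign changed without cell 10 (0.04) and with ERCC scaling (0.94), so no direction is given.

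Ctsz (ENSMUSG00000016256, chr2:174427493-174439039, minus strand) encodes cathepsin Z (also called X), a carboxypeptidase that removes single residues. It ran from 0 to 1274 CPM in CD34_Neg cells, with a median of 2.14 CPM, and from 0 to 613 CPM in CD34_Pos cells, with a median of 105 CPM. The highest CD34_Neg value was that of cell 10, and the next was 559 CPM. The summed levels were 99.3 and 126 CPM, a log2 fold of 0.34 (0.25 to 0.44), and 0.48 without cell 10. The sign stayed positive in all 13 alternative settings, from 0.10 to 1.30.

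Ctss (ENSMUSG00000038642, chr3:95526786-95556403, plus strand) encodes cathepsin S, which trims the invariant chain in antigen-presenting cells. It had 639 reads in cell 10 (2430 CPM) and 1 read in CD34_Pos cell 9, with none in the other 90 cells. In the 45 CD34_Neg cells without cell 10, 0 reads of 33181473 allow a level of up to 0.0904 CPM (3 reads), and 0 of 45 cells allow a share of up to 6.67% of cells with a read. At this depth Ctss was therefore not detectable in either gate apart from those cells.

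Ctsd (ENSMUSG00000007891, chr7:142375911-142388038, minus strand) encodes cathepsin D, the aspartic protease of lysosomes, and had the lowest log2 fold of the 9 genes that pass the filter. The CD34_Neg cells ran from 15.2 to 5341 CPM with a median of 1997 CPM, and from 495 CPM without cell 10. The CD34_Pos cells ran from 11.7 to 2693 CPM with a median of 684 CPM. The gates overlapped, but the interquartile range was 966 to 3073 CPM in CD34_Neg and 327 to 1076 CPM in CD34_Pos. Summed reads gave 2295 and 804 CPM, a log2 fold of -1.51 (-1.54 to -1.48), or 2.85 times higher in CD34_Neg. It was -1.52 without cell 10. The CD34_Neg cell was higher in 83.1% of pairs of cells. Among all genes, 0.658% had a share of 80% or more toward CD34_Neg and 1.23% toward CD34_Pos. With ERCC scaling the log2 fold was -0.55, under 2-fold. A second gene model, Gm49369, shares 808 exonic bases with Ctsd on the same strand and has no row among the counts, so reads in that stretch may not have been split.

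Cst3 (ENSMUSG00000027447, chr2:148871722-148875692, minus strand) encodes cystatin C, a secreted inhibitor of cysteine cathepsins. The CD34_Neg cells ran from 0 to 647 CPM (median 235 CPM) and the CD34_Pos cells from 135 to 1919 CPM (median 428 CPM). Every CD34_Pos cell had Cst3 reads. Values below 135 CPM came from CD34_Neg cells alone and values above 647 CPM from CD34_Pos cells alone, and between these levels the gates overlapped. The summed levels of 234 and 522 CPM gave a log2 fold of 1.15 (1.10 to 1.21), and 1.15 without cell 10, in which Cst3 was at 251 CPM. The CD34_Pos cell was higher in 81.0% of pairs. With scran size factors the log2 fold was 0.93 and with TMM factors 0.95, just under 2-fold, and with ERCC scaling 2.12.

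Srgn (ENSMUSG00000020077, chr10:62493833-62527451, minus strand) encodes serglycin, the proteoglycan core of the granule matrix. The CD34_Neg cells ran from 22.8 to 1787 CPM with a median of 893 CPM, and the CD34_Pos cells from 268 to 5742 CPM with a median of 1761 CPM. The interquartile ranges, 574 to 1183 CPM and 1297 to 2314 CPM, did not overlap, though the full ranges did. Summed reads gave 927 and 1985 CPM, a log2 fold of 1.10 (1.07 to 1.12), and 1.09 without cell 10. The CD34_Pos cell was higher in 87.4% of pairs. The scran value was 0.87, the TMM value 0.89 and the ERCC-scaled value 2.06, so the direction held in each, while the scran and TMM values fell short of 2-fold.

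Lamp1 (ENSMUSG00000031447, chr8:13159161-13175338, plus strand) and Lamp2 (ENSMUSG00000016534, chrX:38401357-38456454, minus strand) encode the main glycoproteins of the lysosomal membrane, and LAMP2A, one product of Lamp2, takes part in chaperone-mediated autophagy. Lamp1 ran from 0 to 1217 CPM in CD34_Neg cells (median 96.7 CPM) and from 0 to 886 CPM in CD34_Pos cells (median 247 CPM). The log2 fold of the summed levels, 192 and 280 CPM, was 0.54 (0.48 to 0.61). The gates overlapped. Leaving out CD34_Neg cell 42, which held 17.5% of that gate's Lamp1 reads, gave 0.78. Lamp1 shares 249 exonic bases with Grtp1 on the opposite strand. Lamp2 ran from 0 to 1297 CPM (median 152 CPM) and from 0 to 885 CPM (median 199 CPM), with summed levels of 214 and 265 CPM and a log2 fold of 0.31 (0.25 to 0.38). These ranges overlapped, with the highest value in a CD34_Neg cell. The Lamp2 fold stayed positive in all 13 alternative settings, from 0.08 with scran size factors to 1.27 with ERCC scaling.

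Cd63 (ENSMUSG00000025351, chr10:128900989-128912822, plus strand) encodes a tetraspanin of granule and lysosomal membranes. Its level ran from 0 to 1202 CPM in CD34_Neg cells (median 678 CPM) and from 161 to 1493 CPM in CD34_Pos cells (median 764 CPM). Cell 10 was the one CD34_Neg cell without a read, and the next lowest was 43.3 CPM. The summed levels of 710 and 801 CPM gave a log2 fold of 0.17 (0.14 to 0.21). This changed sign with scran size factors (-0.05) and TMM factors (-0.03), and was 1.14, past 2-fold, with ERCC scaling, so no direction is given. The count of Cd63 is uncertain, because Cd63-ps, a copy with 98.0% identity over 858 bases, took 48.9% of the reads of the pair in CD34_Neg and 48.5% in CD34_Pos. Adding the copy gave 1390 and 1555 CPM, and a log2 fold of 0.16.

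**Figure D3:**
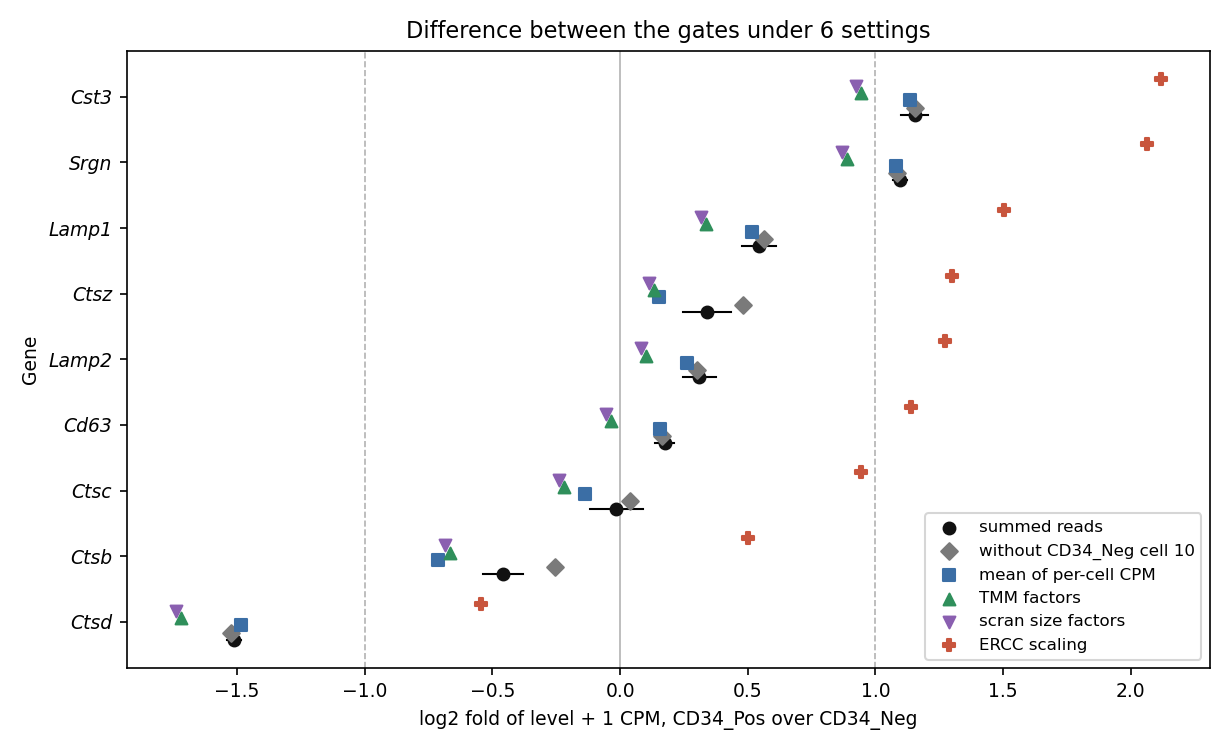
Log2 fold of level + 1 CPM, CD34_Pos over CD34_Neg, for the 9 genes that pass the filter, under 6 settings; black lines are the 95% counting interval of the summed-read value and dashed lines mark a 2-fold difference. Ctsd is negative and Cst3, Srgn, Lamp1, Ctsz and Lamp2 are positive in every setting drawn, and ERCC scaling moves all 9 to the right.

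For detection, each cell was thinned to 200000 gene reads. Ctsb was found in 26 of 46 CD34_Neg cells, or 56.5% (exact binomial interval 41.1% to 71.1%), and in 43 of 46 CD34_Pos cells, or 93.5% (82.1% to 98.6%). The corresponding counts were 33 and 44 for Lamp1, 23 and 35 for Ctsz and 22 and 30 for Ctsc. The intervals of the gates lay apart for Ctsb and Lamp1 and overlapped for Ctsz and Ctsc. These intervals treat the cells of a gate as independent and leave out any spread between mice, so they are no test of the gates. At 50000 gene reads the Lamp1 intervals overlapped (54.2% to 82.3% and 79.2% to 97.6%), while those of Ctsb stayed apart. With at least 10 reads, Ctsb was found in 22 CD34_Neg cells, or 47.8% (32.9% to 63.1%), and in 26 CD34_Pos cells, or 56.5% (41.1% to 71.1%). The counts at 10 reads were 28 and 40 for Lamp1, 18 and 29 for Ctsz, and 18 and 17 for Ctsc, and the intervals then overlapped for all 4 genes. Of the 9 genes that pass the filter, a CD34_Neg cell had reads of 4 to 9 (median 7) and a CD34_Pos cell of 6 to 9 (median 8.5). All 9 were found in 7 CD34_Neg and 23 CD34_Pos cells. The number of genes with a read, over the whole transcriptome, was also higher in the CD34_Pos cells, with a median of 7512 against 5304 in CD34_Neg, and its part in these counts was not tested.

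Levels of different genes were compared per kilobase of exon (RPKM). In CD34_Neg cells the order was Ctsd (976 RPKM), Srgn (422), Cd63 (193), Cst3 (185), Lamp1 (71.7), Ctsz (68.9), Ctsb (31.7), Lamp2 (22.4), Ctsc (16.5) and Ctss (14.1, all from cell 10). In CD34_Pos cells it was Srgn (904 RPKM), Cst3 (412), Ctsd (342), Cd63 (218), Lamp1 (105), Ctsz (87.5), Lamp2 (27.8), Ctsb (23.0), Ctsc (16.3) and Ctss (0.0245). Ctsd led in CD34_Neg, while in CD34_Pos both Srgn and Cst3 stood above it. The interquartile ranges over cells overlapped between all neighbours in these orders except Srgn and Cd63 in CD34_Neg and Srgn and Cst3 in CD34_Pos, so the other steps do not hold beyond the cell-to-cell spread. The Cd63 values leave out its copy. Summed over the 10 genes the level was 4979 CPM in CD34_Neg and 5017 CPM in CD34_Pos. The log2 ratio of these sums, 0.01, was 0.98 with ERCC scaling and -0.22 with scran size factors, so no direction is given. Ctsd made up 46.1% of the reads of the 10 genes in CD34_Neg and 16.03% in CD34_Pos, and Srgn 18.6% and 39.6%.

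The Ctsd and Srgn levels were then set against each other within a cell, a ratio chosen after their values were seen, which does not depend on the library scaling. The log2 ratio of Ctsd to Srgn reads, each plus 1, had a median of 1.36 in CD34_Neg cells (lowest -1.74, highest 3.23) and of -1.44 in CD34_Pos cells (lowest -7.40, highest 1.24). Ctsd exceeded Srgn in 37 of 46 CD34_Neg and in 6 of 46 CD34_Pos cells. Since the pair was picked for its opposite differences, the gap in the ratio is a description of those differences and no further support for them. Without cell 10 the CD34_Neg median was 1.39.

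**Figure D4:**
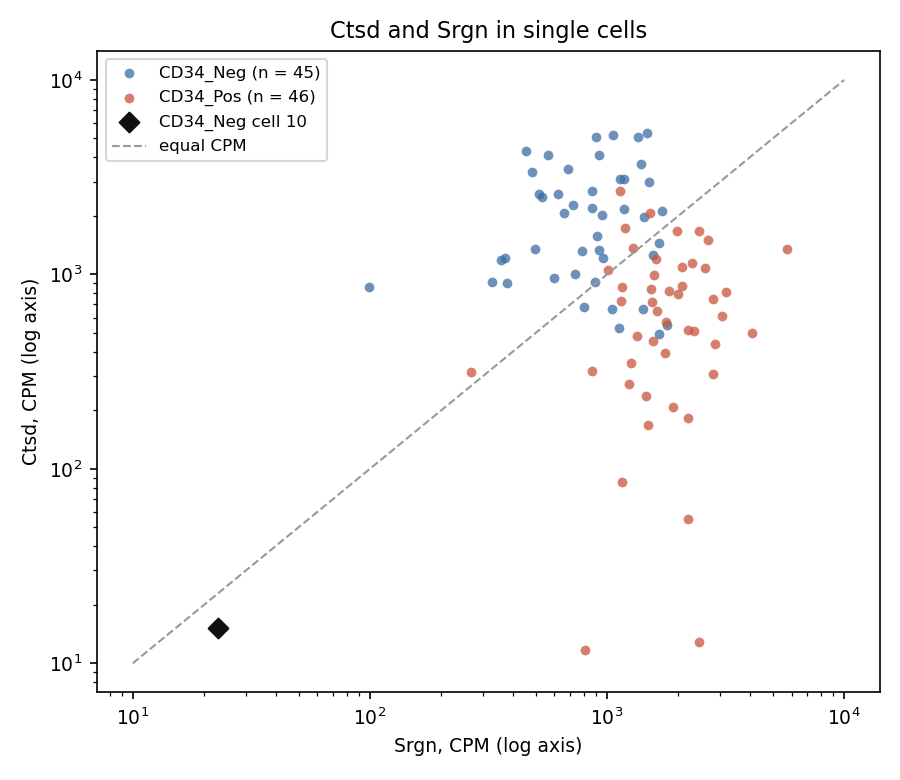
Ctsd against Srgn in single cells, in CPM on log axes, with 45 CD34_Neg cells, 46 CD34_Pos cells and CD34_Neg cell 10 (diamond); the dashed line marks equal levels. Most CD34_Neg cells lie above the line and most CD34_Pos cells below it, and cell 10 is low in both genes.

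Within a gate, most pairs of the 9 genes that pass the filter were weakly correlated; Ctss was left out. Spearman correlations across 46 cells, given as a description over libraries that share depth and amplification, had a median of 0.05 over the 36 pairs in CD34_Neg (-0.27 to 0.34) and of 0.17 in CD34_Pos (-0.07 to 0.53). Without cell 10 the CD34_Neg median was 0.03 (-0.33 to 0.29), and the lowest pair became Ctsd with Cd63 in place of Ctsb with Cd63. The highest pair was Cst3 with Srgn in CD34_Pos cells. The members were also set beside 12 chosen genes of basophil granules, progenitors and other functions. In CD34_Pos cells Ctsd had 0.70 with Actb, the cytoskeletal actin gene, and Cd63 had 0.59 with Cpa3 and 0.58 with Ctsg, both granule protease genes. Srgn and Cst3 each had 0.54 with Mpo, the myeloperoxidase gene. In CD34_Neg cells the highest value among these 12 genes was 0.46, for Lamp1 with Prss34, a basophil protease gene, and it was 0.52 without cell 10. The genes most like each member, by the lower of the 2 within-gate values among 5566 genes, were mostly weak. Ctsd came with Emilin2 (0.49), Cyp4f18 (0.49) and Rnf130 (0.48), Ctsc with Vmp1 (0.43) and Arsb (0.41), Cst3 with Gm14586 (0.47), and Srgn with Atp5b (0.41) and Ssr3 (0.41). Cd63 came with its copy Cd63-ps (0.96), whose reads cannot be told apart from its own with certainty, and then with Laptm5 (0.43). Ctsb, Ctsz, Lamp1 and Lamp2 reached 0.33, 0.40, 0.34 and 0.37 at most.

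The rest of the lysosomal and granule pathway was described by 9 lists with 160 genes, of which 141 passed the filter. Of these, 19 were at least 2-fold higher and 19 at least 2-fold lower in CD34_Pos, 13.5% each, against 21.7% and 10.1% of all genes, and the median log2 fold was -0.02, below that of all genes. When each gene's top cell was left out, 14 of the 19 higher and 11 of the 19 lower genes stayed past 2-fold. Without cell 10 the counts were 21 and 19 of 140. With ERCC scaling they were 69 and 3, against 51.8% and 2.25% of all genes, with a median of 0.94 against 1.04 of all genes. The counts of each list below are likewise to be read beside 21.7% higher and 10.1% lower among all genes.

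The 13 other lysosomal proteases had 8 that passed, with 0 higher and 1 lower. That one was Ctse, cathepsin E, another aspartic protease, at 115 and 50.1 CPM (log2 fold -1.18). It fell short of 2-fold without its top cell (-0.96) and with ERCC scaling (-0.22). Without cell 10, 2 were higher, Ctsh with 1.61 and Ctsl with 1.29 on the log2 scale, since that cell held 59.1% of the Ctsh and 33.02% of the Ctsl reads of its gate. The other protease inhibitors had 4 of 8 that passed and 2 higher: Cst7, cystatin F, a cystatin of leukocyte granules, at 155 and 333 CPM, and Serpinb6a at 2.93 and 8.02 CPM. Serpinb6a had reads in 8 and 13 cells, and its log2 fold of 1.199 was 0.74 without its top cell and 0.88 by mean CPM, under 2-fold. The log2 fold of Cst7 was 1.10, close to that of Cst3.

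Lysosomal hydrolases and their cofactors had 35 of 37 that passed, with 2 higher and 6 lower. Sgsh, N-sulfoglucosamine sulfohydrolase of heparan sulfate breakdown, was at 77.7 CPM in CD34_Neg and 8.22 CPM in CD34_Pos (log2 fold -3.09). Ids, iduronate 2-sulfatase of the same breakdown, stood at 30.2 and 7.86 CPM, with reads in 17 and 16 cells and medians of 0 in both gates. Asah1, acid ceramidase, stood at 142 and 47.5 CPM, with reads in 31 and 29 cells and medians of 7.34 and 6.09 CPM. The medians of Ids and Asah1 thus barely differed between the gates, unlike their summed levels. Idua, which cleaves iduronic acid from heparan sulfate, was higher at 20.8 and 59.1 CPM, with reads in 13 and 27 cells. Sgsh was found in 26 CD34_Neg and 13 CD34_Pos cells.

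Glycosaminoglycan synthesis, which builds the sugar chains of serglycin, had 19 of 20 that passed, with 4 higher and 2 lower. Both counts lay near the shares of all genes. Chst15, which adds a second sulfate to chondroitin sulfate, stood at 689 CPM in CD34_Neg and 225 CPM in CD34_Pos (log2 fold -1.61), with reads in 45 and 46 cells. Xylt2, a xylosyltransferase that starts the chains, had 1 read in CD34_Neg and 432 reads in CD34_Pos, in 15 cells. B3galt6 and Glce of the same pathway were higher with reads in 11 and 9 CD34_Pos cells, so those values rest on few cells.

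Of the genes that sort cargo to lysosomes, 3 were higher and 2 lower among 17 that passed. Lyst, which controls lysosome and granule size, was at 1079 CPM in CD34_Neg and 259 CPM in CD34_Pos (log2 fold -2.05), with reads in 46 and 41 cells. Gnptab, a subunit of the enzyme that makes the mannose-6-phosphate tag, was higher at 8.82 and 40.2 CPM. Lysosome regulators had 0 higher and 2 lower of 10: Tfeb, a transcription factor for lysosomal genes, at 15.5 and 2.497 CPM with reads in 9 and 7 cells, and Lamtor3, a subunit of the Ragulator complex, at 72.4 and 23.9 CPM.

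The other tetraspanins, the family of Cd63, had 5 higher and 1 lower of 12, against 21.7% and 10.1% of all genes. Of the 5, Tspan3 and Cd81 had 63.1% and 47.9% of their CD34_Neg reads in cell 10. Without that cell their log2 folds were 2.71 and 2.92, against 1.55 and 2.06 with it, and by mean CPM Tspan3 was at 0.59, under 2-fold. Tspan31 stood at 20.9 and 102 CPM, Tspan4 at 7.62 and 45.4 CPM, and Tspan32 at 54.6 and 221 CPM. Tspan31 was found in 11 CD34_Neg and 42 CD34_Pos cells. The lysosomal membrane proteins had 1 higher and 3 lower of 19, with a median of -0.38 on the log2 scale, or 0.56 when scaled by ERCC reads, so no direction is given. The vacuolar proton pump, which acidifies the lysosome, had 2 in each direction of 17, with a median of -0.05 that became 0.02 without cell 10, so no direction is given. With ERCC scaling, Sgsh (-2.19), Tfeb (-1.45) and Lyst (-1.09) stayed past 2-fold on the lower side, and the other 16 lower genes of the lists did not.

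**Figure D5:**
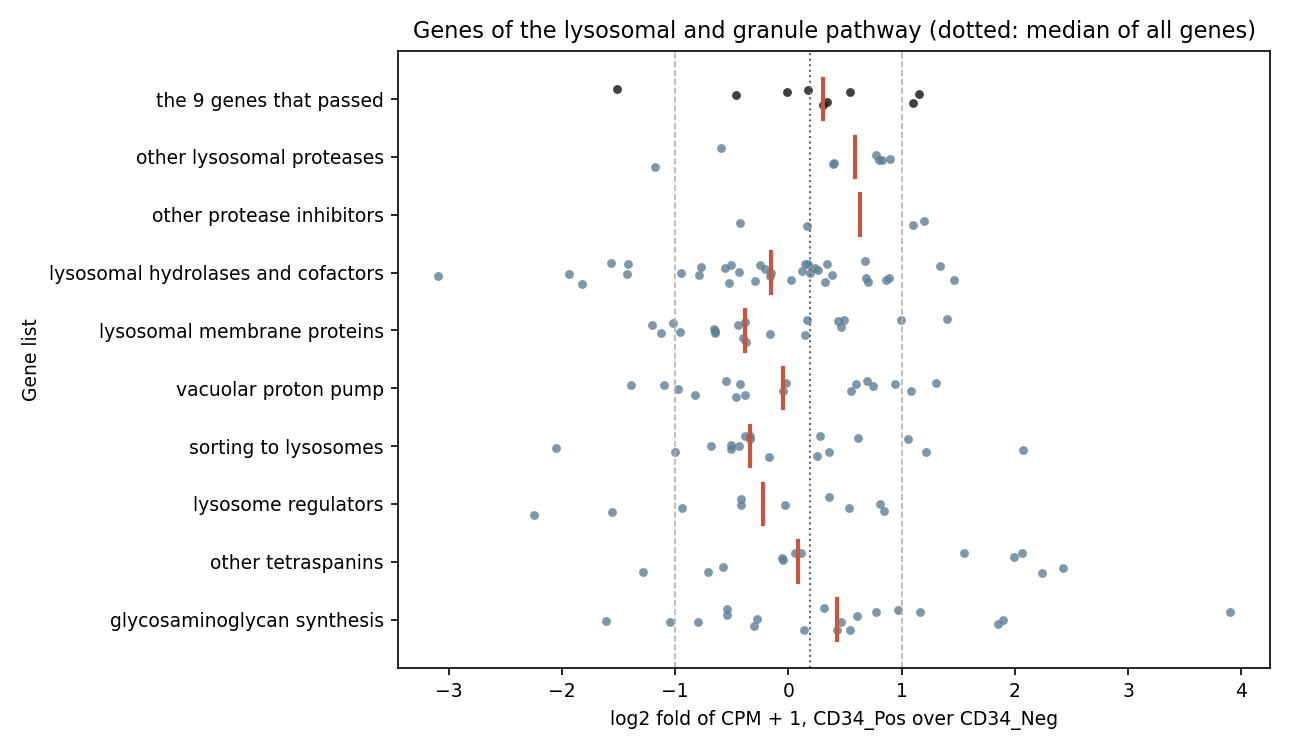
Log2 fold of CPM + 1, CD34_Pos over CD34_Neg, for each gene that passes the filter in the 10 members and the 9 other lists; red bars are list medians, dashed lines mark a 2-fold difference and the dotted line is the median of all genes. The member list spreads on both sides of 0, as the other lists do, and the tetraspanins include a group near 2.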

How the data were processed

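The authors deposited 1 table of raw read counts per gene, with 1 column per cell, 92 ERCC sequences and 5 summary categories. Per the submitters' processing notes, GSNAP, HTSeq 0.5.3p3 and build mm10 were used; their order, the annotation and the strand setting are not given in the sources used here. Of all reads, 32.4% lay in genes, 3.97% in ERCC sequences, 33.03% in no feature, 7.68% were ambiguous and 22.9% were not aligned. Only gene reads entered library sizes. Symbols matched 45143 identifiers, and gene models were taken from the mm10 reference.

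A cell had to have 50000 gene reads, 1000 genes, under 20% mitochondrial and under 50% ERCC reads, which left out 2 of 94. Reads were summed per gate, with exact Poisson and Clopper-Pearson 95% intervals. Copies were sought by sequence match. The calculation was tested on simulated counts. No test was run, since no label ties cells to mice. The members and lists were chosen with earlier results of these data known. The median and the counts past 2-fold cover all 10 members.

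Of the lists, the 8 genes per direction with the largest smallest-absolute log2 fold over 3 versions (summed reads, mean CPM, without the top cell) were named, at 10 CPM or more in a gate. One gene that this rule names is not reported here. For likeness, genes with reads in at least 46 cells were used. Ctse, Cst7, Serpinb6a, Ctsh, Ctsl, Tspan3 and Cd81 were named after their values were seen. Alternatives were other scalings, filters, pseudocounts and left-out cells; leaving out CD34_Neg cell 10 was added after the data were seen. TMM factors were computed between the 2 gate sums and scran size factors per cell. The tools were R 4.3.3 with scran 1.30.0 and edgeR 4.0.16 (TMM only), and Python 3.11.15 with pandas 2.3.3, scipy 1.17.1, numpy 2.4.6 and, for figures, matplotlib 3.10.9.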

Additional observations from a re-analysis of the deposited data

Results flagged for a closer look

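Both cells that were left out for too few reads still held reads of these genes, with a summed level above what a count of 0 allows. CD34_Pos cell 3 had 31504 gene reads and a summed level of 4253 CPM over the 10 genes, from 134 reads of 9 of them. Its Srgn was at 1143 CPM, Cd63 at 1111 CPM, Cst3 at 698 CPM and Ctsd at 571 CPM, so Srgn stood above Ctsd. CD34_Neg cell 20 had 24565 gene reads and a summed level of 448 CPM, from 11 reads of 4 genes, with Ctsd at 204 CPM (5 reads) and Srgn at 122 CPM (3 reads). The limits that 0 reads allow were 95.2 and 122 CPM. Among the single genes of CD34_Neg cell 20, Ctsd alone passed its limit.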

How the results depend on the processing

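No paired analysis was possible because a cell's number is only a name, different cells were sorted into each gate, and no result comes from a test. The log2 fold of Ctss became 0.0473 without CD34_Neg cell 10, and likewise without the cell with most reads; leaving out each cell in turn gave -4.33 to 0.0473, and leaving out cell 10 as such was chosen after seeing the data. The median log2 fold of the 10 genes, 0.24, was 0.15 by mean CPM, 0.0144 with scran, 0.0341 with TMM, 1.21 with ERCC scaling, 0.18 without the top cell and 0.13 over cells 7 to 42. The log2 ratio of the summed levels, 0.01, was -0.0052 by mean CPM, -0.22 with scran, -0.20 with TMM, 0.98 with ERCC scaling, -0.0498 over cells 7 to 42 and -0.0065 without CD34_Neg cells 25 and 36. Genes at least 2-fold higher numbered 0 with scran or TMM and 6 with ERCC scaling, against 2. The median of all genes moved too, from 0.19 to 0.0048 with scran, 0.0209 with TMM and 1.04 with ERCC scaling. Genes at least 2-fold lower numbered 1 with ERCC scaling, without the top cell and without cell 10, against 2. Leaving out each cell in turn gave medians of 0.18 to 0.27, summed-level ratios of -0.0210 to 0.0390, 2 to 2 genes higher and 1 to 2 lower. Beyond what these settings change by construction, the cause was not tested. Of 130 single-gene values, 74 stayed within the counting interval of the main value, and 8 had the other sign, in Ctsb, Ctsc, Ctss and Cd63. Of 60 detection shares, 54 stayed within their interval. Depth limits what is said of Ctss and of genes found in few cells.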
